A study of Homo sapiens and Homo sapiens
Mus musculus and Mus musculus with 9 samples.

Results

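The alpha and beta tubulin isotypes described here are 10 genes of the 41713 distinct genes in the deposited table, 4 alpha tubulin genes (TUBA1A, TUBA1B, TUBA1C and TUBA4A) and 6 beta tubulin genes (TUBB, TUBB2A, TUBB2B, TUBB3, TUBB4B and TUBB6). They were taken from the table by gene symbol, and the family was chosen on the authors' own deposited fold change of TUBA1A between co-culture and culture alone, a value that is not used here. The table covers 3 libraries of C4-2B cells, a human prostate cancer line able to grow in bone, cultured alone, and 3 libraries of a mixed co-culture of C4-2B cells with MC3T3-E1 cells, a mouse osteoblast line, at a ratio of 1 to 30. Both lines were labelled wild type. According to the methods, MC3T3-E1 cells were maintained in alpha-MEM with serum and C4-2B cells in RPMI medium with serum. Co-cultures took the medium of the stromal cells unless stated otherwise, and their C4-2B cells carried GFP. MC3T3-E1 cells alone, in 3 further libraries, have no column in the table used here. RNA was taken from the whole mixed culture, so the human reads of a co-culture were separated from the mouse reads by computation, in 3 ways. Xenome sorted the raw reads by species before alignment, XenofilteR removed mouse reads after alignment to both genomes, and Kallisto assigned reads to the joined human and mouse transcripts.

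What the table gives for each gene and pipeline, apart from the authors' own comparisons, is 1 number, the authors' mean over the 6 libraries of the read count divided by the library's size factor. This mean count has no spread and no value per group, so no difference between co-culture and C4-2B cells alone is given for any tubulin gene. The question that the means can answer is how the same libraries measured each isotype in the 3 pipelines. The pipelines are not replicates, and the values below are descriptions without a test.

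The labelled cell line was visible in the human reads. Markers of prostate epithelium were high with Xenome, with a mean count of 51038 for KLK3, which encodes prostate-specific antigen, and of 5200 for EPCAM, an epithelial adhesion molecule. Of 7 osteoblast markers, COL1A1, the main collagen chain of bone, had mean counts of 3384, 4557 and 2471 with Xenome, XenofilteR and Kallisto, and RUNX2, a transcription factor of the bone lineage, had 411, 400 and 385. COL1A2 had 45.0, 264 and 222 and SPARC, a matrix protein, 72.0, 142 and 142 in the same order. POSTN, BGLAP and SP7 were at 4.22, 3.78 and 0.984 with Xenome. Whether mouse reads contribute to the tubulin values was not tested. The size factors solved from the low means ran from 0.109 to 5.93 with Xenome, a range of 54.4-fold in depth.

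Alpha and beta tubulin form the heterodimer from which microtubules are built, the filaments of the spindle, of cilia and of transport inside the cell. Human cells make each subunit from several genes, called isotypes, whose proteins are very alike and whose use differs between tissues. TUBA1B, TUBA1C, TUBB and TUBB4B are broadly expressed, whereas TUBA1A, TUBB2B and TUBB3 are best known from neurons, where TUBB3 serves as a marker. The cell also reads its own tubulin level. When free heterodimers are in excess, the protein TTC5 binds the first residues of tubulin chains as they leave the ribosome, and the mRNA being translated is degraded.

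The sequence that carries this control lies at the start of each coding sequence. The first 24 coding bases of 9 of the isotypes are shown to let their likeness be seen, with the first 4 codons in capitals, 5′ to 3′ on the coding strand, from GENCODE release 44 on GRCh38.
TUBA1A: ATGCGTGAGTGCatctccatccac
TUBA1B: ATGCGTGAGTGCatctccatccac
TUBA1C: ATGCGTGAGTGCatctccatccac
TUBA4A: ATGCGTGAATGCatctcagtccac
TUBB: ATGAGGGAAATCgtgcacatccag
TUBB2A: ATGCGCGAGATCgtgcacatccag
TUBB2B: ATGCGTGAGATCgtgcacatccag
TUBB3: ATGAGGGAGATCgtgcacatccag
TUBB4B: ATGAGGGAAATCgtgcacttgcag
The 3 TUBA1 genes were identical over these bases. In the alpha genes the start codon was cut off from the rest by an intron. TUBA1A has its start codon at chr12:49188977-49188979 (minus strand) and continues at chr12:49186813-49186833, and TUBA1C has its own at chr12:49265182-49265184 (plus strand) and continues at chr12:49269465-49269485. In the beta genes shown the 24 bases lay in 1 exon, at chr6:30720507-30720530 (plus strand) for TUBB and at chr16:89923402-89923425 (plus strand) for TUBB3. Among 19811 protein-coding genes, 10 began with codons for the same 4 residues as the beta isotypes and 9 with codons for those of the alpha isotypes, and all of these were tubulin genes.

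The TUBA1 genes stayed alike far beyond the start. Over the aligned coding sequences, TUBA1A and TUBA1B were 97.2% identical (38 differences in 1356 positions), TUBA1A and TUBA1C 95.9%, and TUBA1B and TUBA1C 96.8%. TUBA1A and TUBA4A were 84.4% identical. Human TUBA1A was 93.7% identical to mouse Tuba1a, so the human TUBA1 genes were closer to each other than TUBA1A was to its mouse counterpart. The reads of these libraries were 50 bases long at each end. Of the 1271 windows of 50 bases in the compared TUBA1A coding sequence, 574 had no difference from TUBA1B, 457 none from TUBA1C and 74 none from mouse Tuba1a, and the longest identical runs were 221, 164 and 74 bases. The last bases of the coding sequence were left out of these windows and runs.

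**Figure D1:**
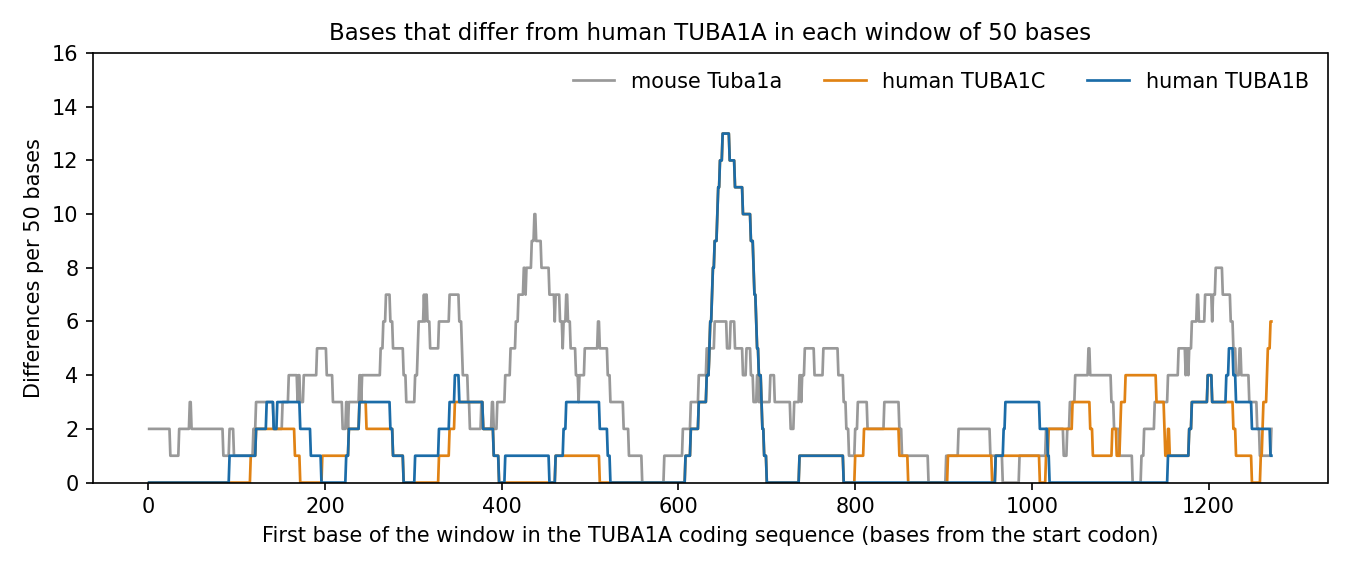
Number of bases that differ from human TUBA1A (y axis) in each window of 50 bases, by the window's first base in the coding sequence (x axis), for human TUBA1B, human TUBA1C and mouse Tuba1a. The human genes share a peak of 13 differences near base 650, where the TUBA1B line covers that of TUBA1C. Both stay at 0 over long stretches in which the mouse gene differs. The windows stop before the end of the coding sequence, and in the last one TUBA1C has 6 differences and TUBA1B 1.

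TUBA1A was the isotype with the lowest Kallisto value relative to Xenome. TUBA1A (ENSG00000167552, 12:49184795-49189080 on GRCh38 as the table gives it) encodes the alpha tubulin best known from developing neurons. With Xenome its mean count was 1708, with XenofilteR it was 995 and with Kallisto 171, so that the Xenome value was 10.0 times the Kallisto value. Only genes whose mean count reached 50 in both pipelines were compared, and of these 11593 genes only 4 had a lower ratio of Kallisto to Xenome than TUBA1A.

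The other TUBA1 genes differed in the opposite direction. TUBA1B (ENSG00000123416, 12:49127782-49131397), a broadly expressed alpha tubulin, had mean counts of 14645, 18351 and 75674 with Xenome, XenofilteR and Kallisto, the last being 5.17 times the first. TUBA1C (ENSG00000167553, 12:49188736-49274603) had 8728, 9776 and 22687, a ratio of 2.60 between Kallisto and Xenome. Both were highest with Kallisto, where TUBA1A was lowest. The mean counts of the 3 genes summed to 25081 with Xenome, to 29123 with XenofilteR and to 98532 with Kallisto, so the Kallisto sum was 3.93 times that of Xenome. TUBA1A made up 6.81% of the TUBA1 sum with Xenome, 3.42% with XenofilteR and 0.173% with Kallisto, while the part of TUBA1B went from 58.4% to 63.0% and 76.8%.

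TUBA4A (ENSG00000127824, 2:219249710-219278170), the most distant alpha isotype of the set, did not share this. Its mean counts were 6551, 6505 and 6640, and the ratio of Kallisto to Xenome was 1.01.

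**Figure D2:**
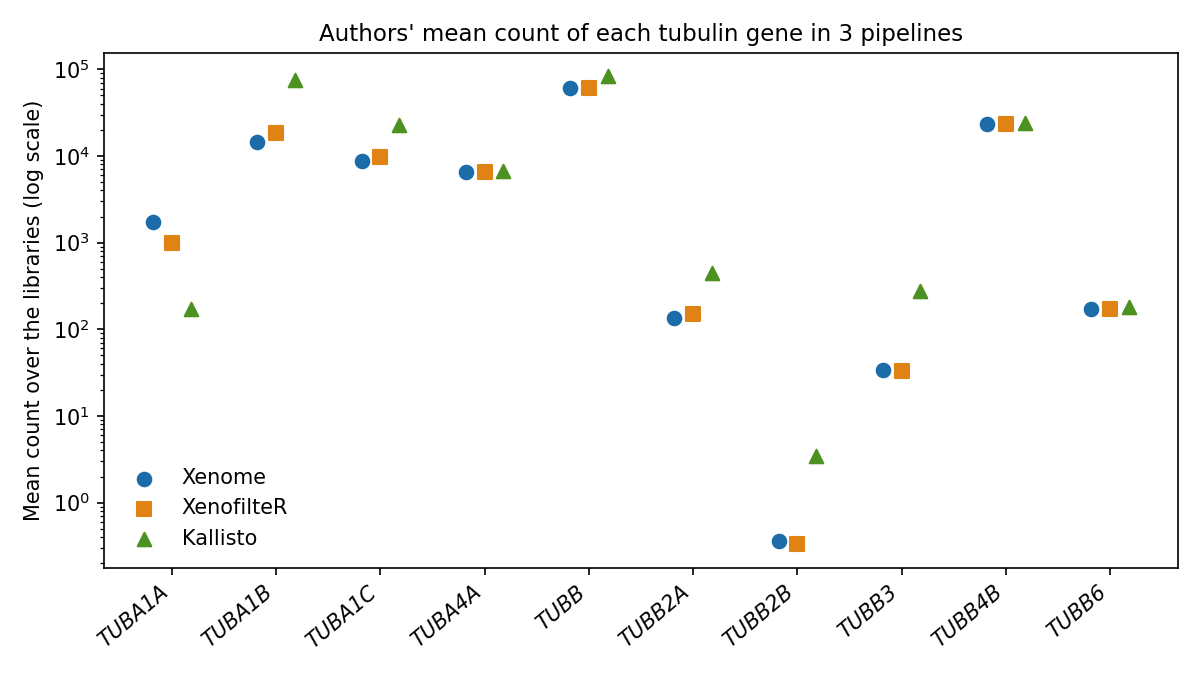
Authors' mean count over the 6 libraries (y axis, log scale) of each tubulin gene with Xenome, XenofilteR and Kallisto; each point is 1 pooled value without error. TUBA1A is lower with Kallisto than with Xenome, TUBA1B, TUBA1C, TUBB2A, TUBB2B and TUBB3 are at least 2-fold higher, and the points of TUBA4A, TUBB4B and TUBB6 lie together.

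Among the beta isotypes, TUBB4B and TUBB6 gave close values in the 3 pipelines and TUBB a somewhat higher one with Kallisto. TUBB (ENSG00000196230, 6:30720352-30725426), the main beta tubulin of dividing cells, had mean counts of 60258, 60143 and 82818 with Xenome, XenofilteR and Kallisto, a ratio of 1.37 between Kallisto and Xenome. TUBB4B (ENSG00000188229, 9:137241287-137243707), which is broadly expressed and also builds cilia, had 23447, 23387 and 24106. TUBB6 (ENSG00000176014, 18:12307669-12344320) had 171, 171 and 183. For TUBB4B and TUBB6, Kallisto was within a ratio of 1.07 of Xenome.

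TUBB2A, TUBB2B and TUBB3 were more than 3-fold higher with Kallisto than with Xenome. TUBB2A (ENSG00000137267, 6:3153666-3157544) had mean counts of 135, 150 and 442, and Kallisto was 3.27 times Xenome. TUBB2A has a close neighbour, TUBB2B (ENSG00000137285, 6:3224277-3231730), a neuronal isotype whose coding sequence was 98.1% identical to it (25 differences in 1338 positions). TUBB2B had mean counts of 0.360, 0.331 and 3.49, which rest on very little. The whole reads solved from the mean were 7, 3, 2, 0, 0 and 0 in the 6 libraries with Xenome, 12 in all, and 6, 3, 2, 0, 0 and 0 with XenofilteR. The solved libraries carry no label and are listed from the deepest to the shallowest.

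TUBB3 (ENSG00000258947, 16:89921392-89938761), the neuronal marker, had mean counts of 33.5 with Xenome, 33.4 with XenofilteR and 279 with Kallisto, a ratio of 8.32 between Kallisto and Xenome. The Xenome value came from 198, 276, 236, 6, 5 and 2 reads, 723 in all, and the XenofilteR value from 198, 273, 236, 6, 5 and 2 reads. TUBB3 lies on the same strand as a read-through gene without a symbol (ENSG00000198211, 16:89919165-89936092), with which it shares 14701 positions of the table's intervals and 92.8% of the 50-base sequences of its transcript. The read-through gene had mean counts of 0.128, 0.128 and 0.356. The part of this overlap in the TUBB3 values was not tested.

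Counted over the family, 8 of the 10 isotypes reached a mean count of 50 with both Xenome and Kallisto, all but TUBB2B and TUBB3. Of these 8, 3 (TUBA1B, TUBA1C and TUBB2A) were at least 2-fold higher with Kallisto, where 5.93% of all 11593 genes compared were. TUBA1A, 1 of the 8, was at least 2-fold lower, where 0.328% of all genes were. The median ratio was 1.22 for the isotypes and 1.02 for all genes (5th to 95th percentile 0.915 to 2.23). Between XenofilteR and Xenome, 0 of the same 8 isotypes were 2-fold higher and 0 were 2-fold lower, beside 0.0924% and 0.0569% of 14072 genes. TUBA1A with 0.582 and TUBA1B with 1.25 were the isotypes farthest from 1 in that comparison, and only 10 of the 14072 genes had a ratio below that of TUBA1A.

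The isotypes also differed in how much of their mRNA sequence occurs in transcripts of another gene, including genes that overlap them. For each transcript, the share of its 50-base sequences that occur on the same strand in a transcript of another human gene was 47.3% for TUBA1A, 62.7% for TUBA1B and 26.7% for TUBA1C, against 5.55% for TUBA4A. It was 64.6% for TUBB2A, 54.9% for TUBB2B and 92.8% for TUBB3, against 19.3% for TUBB, 10.4% for TUBB4B and 1.09% for TUBB6. The median over 19874 protein-coding genes was 0. Counting either strand, the shares were 50.6% for TUBA1A, 87.1% for TUBA1B, 42.7% for TUBA1C and 34.5% for TUBA4A, and 32.7% for TUBB and 15.3% for TUBB4B, so that TUBA4A then stood close to TUBA1C. The shares of TUBB2A, TUBB2B, TUBB3 and TUBB6 were the same on either strand. TUBA1A shared most with TUBA1B (609 sequences), then with TUBA1C (458). TUBB2A shared most with TUBB2B (933). TUBB3 shared most with the read-through gene that overlaps it (1537 of its 1657 sequences), then with TUBB2A and TUBB2B (142 each, 8.57%). TUBB shared most with the pseudogene TUBBP1 (422 sequences). Sequences also found in mouse transcripts made up 7.39% of TUBA1A, 8.49% of TUBA1B, 2.52% of TUBA1C, 1.98% of TUBB4B, 0.302% of TUBB3 and 0 of TUBB. The median protein-coding gene had 0 here too, and 98.9% of genes had a lower mouse share than TUBA1A and 99.2% a lower one than TUBA1B. For the share with other human genes, 90.1% and 91.6% of genes were below them.

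The pipelines and the sharing can be set side by side over all genes. Of 9588 protein-coding genes with less than 5% of 50-base sequences in another human gene, 1.72% were at least 2-fold higher with Kallisto than with Xenome and 0.198% at least 2-fold lower. In the classes of 5 to 25%, 25 to 50% and over 50%, 6.73%, 22.4% and 73.1% were higher, and 0.273%, 0.499% and 2.69% were lower. The median ratios of the 4 classes were 1.01, 1.11, 1.45 and 3.33. TUBA1B and TUBA1C had ratios above the median of their classes, and TUBB2A with 3.27 was just below the median of its class. TUBA1A was on the other side, 1 of only 2 genes of the 401 in its class that were at least 2-fold lower. Counting either strand, its share of 50.6% would pass the limit of 50%. The classes were built on same-strand shares, however, and none were made by either strand. In the same-strand class over 50%, 13 of 483 genes were lower. The isotypes with at most 10.4% shared on the same strand, TUBA4A, TUBB4B and TUBB6, had ratios from 1.01 to 1.07, but for TUBA4A the low share holds for the same strand only. Whether shared sequence sets the ratios of the tubulin genes was not tested.

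**Figure D3:**
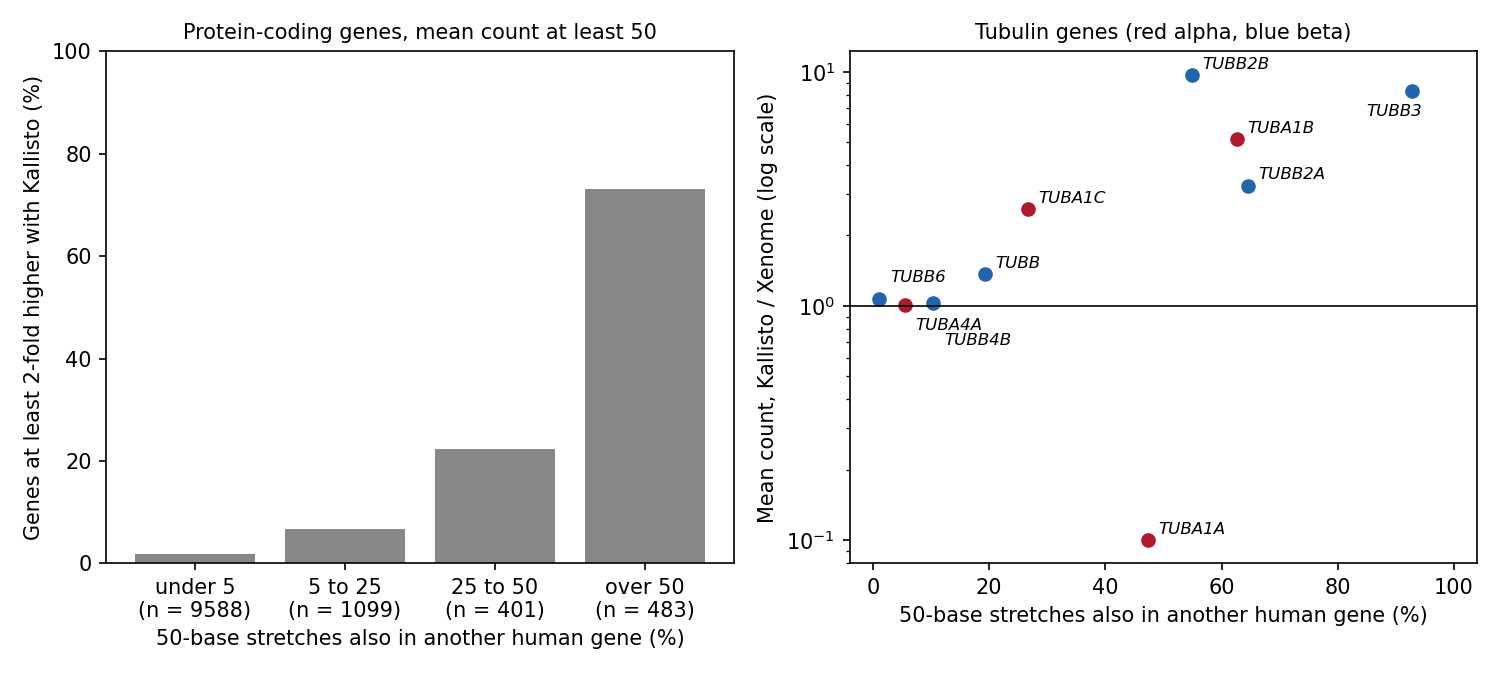
Left, percent of protein-coding genes at least 2-fold higher with Kallisto than with Xenome (bars, y axis from 0) by the percent of a transcript's 50-base sequences that occur on the same strand in another human gene (x axis). Right, the ratio of the mean counts (y axis, log scale) of each tubulin gene against the same percent. The line marks equal values, and TUBA1A, with 47.3% shared, is the only isotype far below it. The percent of TUBB3 is that shared with the read-through gene that overlaps it.

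TUBA1A also overlaps TUBA1C in the genome. Their intervals in the table share 345 positions (12:49188736-49189080) on opposite strands, the interval that holds the start codon of TUBA1A. The libraries were made with a stranded kit, but the strand setting of the counting is not given in the sources used here, so reads from this stretch cannot be assigned with certainty.

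Divided by transcript length, the isotypes can be ranked against each other within a pipeline. The division does not adjust for the unequal share of sequence that occurs in other genes, and its bearing on the ranks was not tested. With Xenome, TUBB led with a mean count of 23960 per 1000 bases, followed by TUBB4B with 15001 and TUBA1B with 9001. TUBA4A with 3197 and TUBA1C with 3092 were close, and their order was the reverse with XenofilteR, where they had 3175 and 3463, and with Kallisto. TUBA1A had 1022, TUBB6 91.2, TUBB2A 83.7, TUBB3 19.6 and TUBB2B 0.187 per 1000 bases. TUBB and TUBB4B together with TUBA1B were the top 3 in every pipeline, but with Kallisto TUBA1B came first, with 46512 per 1000 bases against 32930 for TUBB. By coding length this order was the reverse, with 62176 for TUBB and 55931 for TUBA1B per 1000 coding bases. TUBA1A was sixth with Xenome and eighth with Kallisto, where it had 102 per 1000 bases and stood below TUBB2A with 274 and TUBB3 with 163.

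The balance between the subunits differed between the pipelines too. Summed per length over the isotypes, alpha tubulin was 0.417 of beta tubulin with Xenome (16312 against 39156 per 1000 bases), 0.474 with XenofilteR and 1.18 with Kallisto (57890 against 48889). The sums cover the isotypes of the set only and leave out other tubulin genes, such as TUBA3D and TUBA3E. They are not adjusted for sequence shared with other genes. Per coding length the Kallisto ratio was 0.962, so whether alpha exceeded beta depended on the length used. TUBA1B held 55.2% of the alpha sum with Xenome and 80.3% with Kallisto, and TUBA4A 19.6% and 5.60%. Within beta tubulin, TUBB held 61.2% with Xenome and 67.4% with Kallisto, and TUBB4B 38.3% and 31.5%. The largest part of the beta sum was held by TUBB in each pipeline, and that of the alpha sum by TUBA1B.

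**Figure D4:**
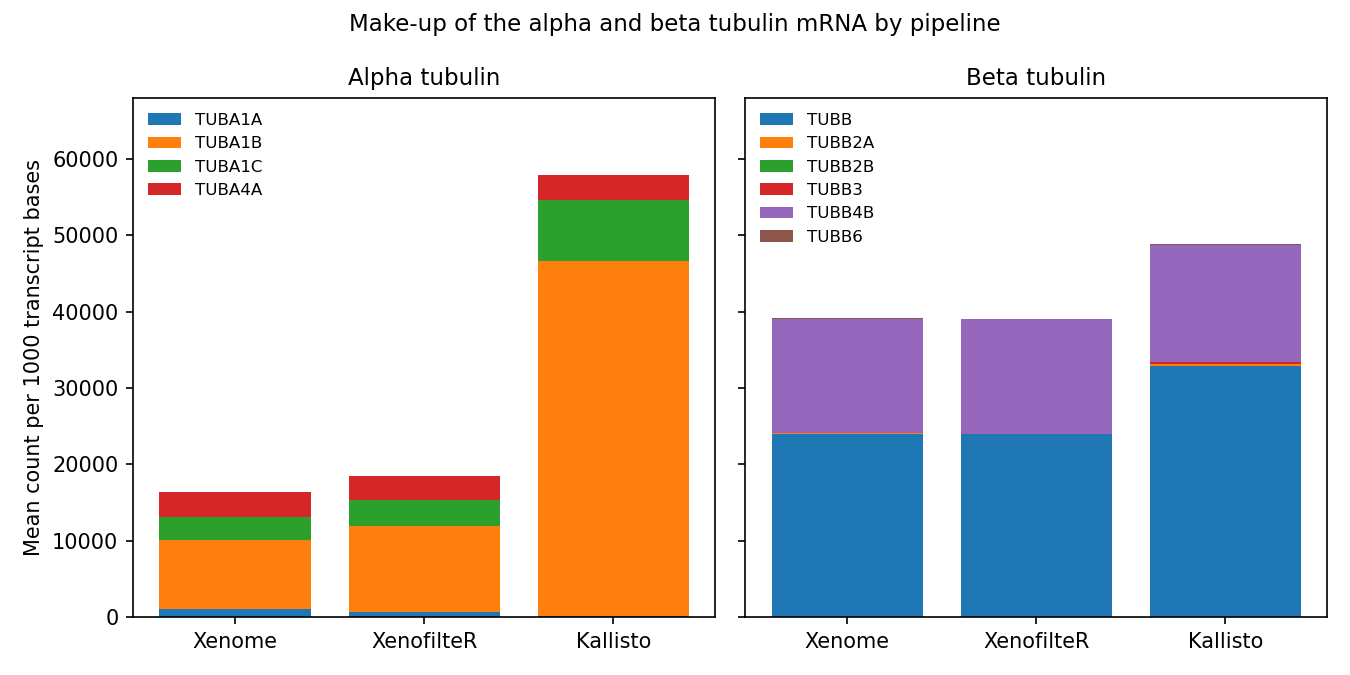
Mean count per 1000 transcript bases (y axis, from 0) of the alpha (left) and beta (right) tubulin genes, stacked by gene, with each pipeline. The alpha stack rises from 16312 with Xenome to 57890 with Kallisto through TUBA1B and TUBA1C, while the beta stack goes from 39156 to 48889.

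Few genes around the isotypes in the tubulin pathway were past 2-fold between Kallisto and Xenome, as were few genes in general (5.93% higher and 0.328% lower), so their counts show nothing particular to the pathway. Of 22 genes whose products bind microtubules, such as STMN1, which sequesters heterodimers (8340, 8748 and 8545 with Xenome, XenofilteR and Kallisto), 0 were past 2-fold in either direction between Kallisto and Xenome. Of 21 genes of tubulin folding, the chaperonin CCT and the tubulin cofactors among them, TBCE was listed on 2 rows, and 1 of these was higher with Kallisto, with mean counts of 145 and 1400, against 1072 and 1681 on the other row. Among the chaperonin subunits, CCT2 had 16117 and 16066 for Xenome and Kallisto, CCT6A 26790 and 27329, and CCT3 20658 and 24032. Of 14 genes of tubulin modification and mRNA control, 1 was higher with Kallisto, VASH1, which removes the last residue of alpha tubulin, with 54.1 and 342. TTC5, the reader of nascent tubulin, had 891, 888 and 851.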

How the data were processed

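The authors filtered reads with Xenome or XenofilteR, aligned them to GRCh38 with HISAT2 and counted them with featureCounts, or quantified joined human and mouse transcripts with Kallisto, and ran DESeq2. Per the methods, libraries were stranded mRNA with 50-base paired reads. The deposited mean count, another unit than raw counts, is the authors' mean over 6 libraries of counts divided by size factors. Another 15 columns hold the authors' comparisons (log2 fold changes, their errors, Wald statistics, p-values and adjusted p-values) and were not used. Of 41734 rows, 21 repeated a gene and were dropped. The members and lists were chosen with earlier results of these data known. Named genes are the 10 isotypes, and of the lists and pseudogenes those past 2-fold and examples. Genes entered a comparison when their mean reached 50 in both pipelines. Whole reads were solved from low means of Xenome and XenofilteR (each of 20014 and 19873 genes with a mean below 10 had 1 solution at a tolerance of 1e-12). The TUBB3 means of 33.5 and 33.4 lie outside that range, and each had 1 solution. The solved reads cover counting error only. The method was tested on simulated data, and the outcome is not given here. One read adds 0.028 to 1.53 to a Xenome mean, by library. Sequence came from GENCODE releases 44 (GRCh38) and M21 (GRCm38), using the transcript tagged canonical. The software was numpy 2.4.6, numba 0.67.0, pandas 2.3.3, biopython 1.88 and matplotlib 3.10.9 under python 3.11.15.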

Additional observations from a re-analysis of the deposited data

How the results depend on the processing

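No paired analysis was possible because the table holds no value per library, and for the same reason fits without 1 replicate, other normalizations and filters of the co-culture comparison were not run. The counts of isotypes that were 2-fold higher (3) or lower (1) with Kallisto changed in the settings tried only with a lower filter on means: 4 were higher at a mean of at least 10, with TUBB3 added, and 5 without a filter, with TUBB2B as well. Of all genes, 9.81% were higher and 0.656% lower at a fold of 1.5, 8.83% higher and 0.596% lower at a mean of at least 10, and 18.1% higher and 1.66% lower without a filter. Between XenofilteR and Xenome, 1 isotype (TUBA1A) was lower at a fold of 1.5. Of all genes, 0.22% were then higher and 0.192% lower, 0.189% and 0.258% at a mean of at least 10, 0.686% and 1.23% without a filter, and 0.00859% and 0.0172% among protein-coding genes only. By level per length, 4 isotypes changed place with XenofilteR, 9 with Kallisto and 2 with coding length. Alpha over beta was 0.474 with XenofilteR, 1.18 with Kallisto and 0.372 with Xenome and coding length, against 0.417. Chosen after seeing the data, coding length with Kallisto gave 0.962, which is below 1, and with XenofilteR 0.419. TUBA1B held 60.9%, 80.3% and 46.2% of the alpha sum with XenofilteR, with Kallisto, and with Xenome and coding length, TUBA1A 3.21%, 0.176% and 5.39%, and TUBB 67.4% of the beta sum with Kallisto and 71.7% with coding length. With all alpha or beta tubulin genes in the sums and Xenome, TUBA1B held 50.7% and TUBA1A 5.75% of the alpha sum, and TUBB 61.2% of the beta sum. The cause of these shifts was not tested. Depth limits TUBB2B, with 12 reads in all, and TUBB3, with 723.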

Other observations

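The tubulin genes outside the set ranged widely in level. Of 12 other tubulin genes, TUBG1, which encodes the gamma tubulin of the centrosome, was the highest, with mean counts of 6240, 6220 and 9066 with Xenome, XenofilteR and Kallisto, followed by TUBA3D with 1328, 1326 and 1639 and TUBD1 with 977, 980 and 1001. Of these 12, 6 reached a mean count of 50 with both Xenome and Kallisto, and 0 of the 6 were past 2-fold, where 5.93% of all genes were higher with Kallisto. Below that level, TUBB4A had 6.02, 14.5 and 17.1 and TUBA3C 16.5, 16.4 and 34.8, each more than 2-fold higher with Kallisto than with Xenome. TUBA8 had 19.9 with XenofilteR and 40.8 with Kallisto, which was 2.05 times its Xenome mean. TUBB1 was lower with Kallisto, with 21.8, 21.8 and 17.4, and TUBAL3 had 0.181, 0.181 and 0.183. Without a filter on low means, 18.1% of all genes were at least 2-fold higher with Kallisto. TUBB8, a beta tubulin best known from oocytes, was also below it with Xenome. It had mean counts of 1.98, 1.56 and 174, and the Xenome mean came from 24, 24, 16, 0, 0 and 0 reads.

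The table lists 21 tubulin pseudogenes by symbol, 1 of which (TUBA3FP) it classes as a long non-coding RNA, and 0 of them had a Kallisto value. Of all 41713 genes, 20359 had one, a number near the 19939 protein-coding genes of the table. The missing value therefore shows nothing particular to the tubulin pseudogenes. With Xenome, 3 reached a mean count of 50, namely TUBBP1 with 755, TUBBP5 with 199 and TUBAP2 with 90.6. With XenofilteR, these had 761, 198 and 77.4.

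The 6 solved libraries fell into 3 with size factors of 5.93, 5.31 and 4.86 and 3 with 0.427, 0.145 and 0.109 with Xenome. In that order, the normalised counts of TUBB3 were 33.4, 51.9, 48.5, 14.1, 34.5 and 18.4. The last 3 rest on 6, 5 and 2 reads, and the libraries carry no label.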
